A study of Mus musculus with 16 samples.

Results

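Of the 10 circadian genes listed for this account, Per1, Per2, Per3, Cry1, Cry2, Nr1d1, Nfil3, Dbp, Tef and Hlf, 9 were measured among 22180 genes on the arrays. They were chosen by name as the repressors of the circadian clock and the D-box factors that the clock controls, and each gene was read from the probe set (a group of array probes that reports 1 transcript) with the highest mean among those annotated to a single gene. Per2 has no value here, because its probe set is annotated to 2 genes. Tef was read by 2 such probe sets and the other members by 1 each.

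The study used hippocampus of C57BL/6 mice aged 8 to 10 weeks and measured total RNA on 16 Affymetrix arrays, 4 in each of 4 groups. Control mice were wild type with a glial cre recombinase, and Astro-D2KO mice carried floxed Dio2 (D2, the deiodinase that makes the active thyroid hormone T3) with the same glial cre, so that both genotypes expressed the recombinase in glia. Lithium chloride (10 mEq/kg) was injected into every mouse 18 h ahead of saline or of pilocarpine (65 mg/kg), a muscarinic agonist that brings on status epilepticus (SE), a prolonged seizure. Since each saline mouse also had lithium, the comparison of SE with saline leaves lithium out, but pilocarpine and the seizure itself cannot be told apart. The series asked how SE alters thyroid hormone action in brain and what this does to the acute hippocampal response. The interval to tissue collection and the time of day, which bears directly on clock genes, are not stated in the labels used here.

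In the mammalian clock, CLOCK and BMAL1 (the product of Arntl) bind E-boxes and activate the Period (Per) and Cryptochrome (Cry) genes, whose proteins return to repress that activation. A further loop runs through Nr1d1, which encodes REV-ERB alpha, a repressor of Arntl. The clock also drives the PAR bZIP activators DBP, TEF and HLF, which bind D-boxes, and the repressor NFIL3 (E4BP4) binds the same sites against them. Per1 is also known in neurons as a gene induced by activity through CRE elements (cAMP response elements), and separately as one induced by glucocorticoids.

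The stretches of promoter below show which of these sites stand before the genes whose levels are described next. They are RefSeq sequences on GRCm38.p6, written 5′ to 3′ on the strand of the gene. Capitals mark a D-box in Per3 at chr4:151044708-151044915 (minus strand), an E-box and an E′-box in Cry1 at chr10:85185055-85185304 (minus strand), and an E-box in Tef at chr15:81802423-81802672 (plus strand). Windows of 30 bases are shown for the E-box of Per1 at chr11:69098771-69098800 (plus strand), the E′-boxes of Cry2 at chr2:92434218-92434247 and Nr1d1 at chr11:98775388-98775417, the short CRE core of Nfil3 at chr13:52981082-52981111 and the full CRE of Hlf at chr11:90390918-90390947, the last 4 on the minus strand.

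Per3: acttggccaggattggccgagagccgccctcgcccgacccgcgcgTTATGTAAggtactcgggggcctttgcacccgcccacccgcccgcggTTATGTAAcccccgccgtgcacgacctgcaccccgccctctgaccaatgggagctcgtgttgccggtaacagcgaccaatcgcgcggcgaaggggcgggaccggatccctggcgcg
Cry1: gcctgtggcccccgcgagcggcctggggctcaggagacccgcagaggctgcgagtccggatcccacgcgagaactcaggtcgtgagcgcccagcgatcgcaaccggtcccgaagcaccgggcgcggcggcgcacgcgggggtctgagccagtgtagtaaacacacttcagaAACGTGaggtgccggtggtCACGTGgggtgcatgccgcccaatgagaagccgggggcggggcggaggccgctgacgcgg
Tef: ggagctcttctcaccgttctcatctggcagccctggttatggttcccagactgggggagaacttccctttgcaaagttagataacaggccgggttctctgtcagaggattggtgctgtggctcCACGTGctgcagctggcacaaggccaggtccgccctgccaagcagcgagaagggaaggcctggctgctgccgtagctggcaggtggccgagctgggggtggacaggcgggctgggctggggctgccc
Per1: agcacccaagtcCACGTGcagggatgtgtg
Cry2: acacatggtgggAACGTGagggggcggagc
Nr1d1: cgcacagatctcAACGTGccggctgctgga
Nfil3: ggcggccgccgccCGTCAcggcggggctgg
Hlf: atcggcgcgcggtgcgggcccTGACGTCAc

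A promoter window, the 250 bases before an annotated start, was found for 9 members (11 windows, since Per1 and Tef have 2 each), and Per2 was not matched. Both strands were searched. The D-box (TTATGTAA or TTACGTAA) was found in 0.931% of 32851 promoter windows and in 1 member, Per3, which holds it at 205 and at 158 bases before its start. The E-box (CACGTG) was in 6.02% of windows and in 3 members, Per1, Cry1 and Tef, and the E′-box (CACGTT) was in 3.85% and in 3 members, Cry1, Cry2 and Nr1d1. The full CRE (TGACGTCA) was in 1.55% of windows and in 1 member, Hlf, 9 bases before its start. Its core (TGACG, which also lies inside the full CRE) was in 17.8% of windows and in 5 members, Per1, Cry1, Cry2, Nfil3 and Hlf. AGGTCA, the core bound by ROR and REV-ERB receptors, was in 14% of windows and in 2 members, Per1 and Nfil3. The window of Dbp held none of these letters. These matches describe the letters of a short window and are not evidence of binding.

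Before the members were compared, the labels were checked against Dio2, the deleted gene. In Astro-D2KO mice Dio2 was 2.57-fold lower than in control mice under saline (exact permutation test, p = 0.0286, the smallest that 4 arrays against 4 allow) and 2.66-fold lower after SE (exact permutation test, p = 0.0571). The array labelled Astro-D2KO SE replicate 1 read 8.91 for Dio2 against 7.03 to 7.17 in the rest of its group, and the array labelled control SE replicate 4 was the lowest of its group at 7.99. That level of 7.99 lay within the control saline range of 7.87 to 8.28 and above the 7.03 to 7.17 of the Astro-D2KO SE arrays. These 2 arrays are called the discordant arrays here. Whether their labels are wrong was not tested, so the SE group means and the genotype differences after SE hold only if the labels are right, and the members' changes are also given without both arrays. Over the 16 arrays the CA1 markers averaged 7.94 to 8.31 and the CA2 and CA3 markers 7.32 to 8.12. Neocortical markers, at 6.96 to 8.22, and thalamic markers were also read, and since probes differ in scale these levels do not tell how pure the dissection was. The 5 dentate granule cell markers averaged 7.03 to 7.74 in control saline arrays, 6.27 to 7.09 in control SE arrays, 6.62 to 7.61 in Astro-D2KO saline arrays and 6.57 to 6.82 in Astro-D2KO SE arrays. In whole tissue, fewer cells of a type and less RNA per cell cannot be told apart.

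SE went with rises of some clock repressors and falls of some D-box activators, in both genotypes. In control mice 4 of the 9 measured members rose, the repressors Nfil3, Per1, Cry1 and Cry2, and 2 fell, the PAR bZIP factors Dbp and Tef. Over all genes, 8.42% rose and 13.7% fell in this comparison (limma adjusted p under 0.05). In Astro-D2KO mice 4 members again rose, against 7.49% of all genes, and 2 fell, against 12.6%; these were the same 6 genes, but the control and Astro-D2KO comparisons use different arrays with one shared estimate of spread. Per3, Hlf and Nr1d1 did not pass in either genotype. Per3 and Nr1d1, which are also repressors, were lower after SE (-0.51 and -0.58, and -0.22 and -0.19, in control and Astro-D2KO mice). The median change of the 9 members was -0.22 on the log2 scale in control mice and was -0.19 after deletion of Dio2, beside -0.02 and -0.01 for all genes. Each of these member medians is the value of Nr1d1, which did not pass. Without both discordant arrays the member medians were 0.03 in control and -0.21 in Astro-D2KO mice, so the control median changed sign. By sign, 4 members were higher and 5 lower after SE in each genotype.

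**Figure D1:**
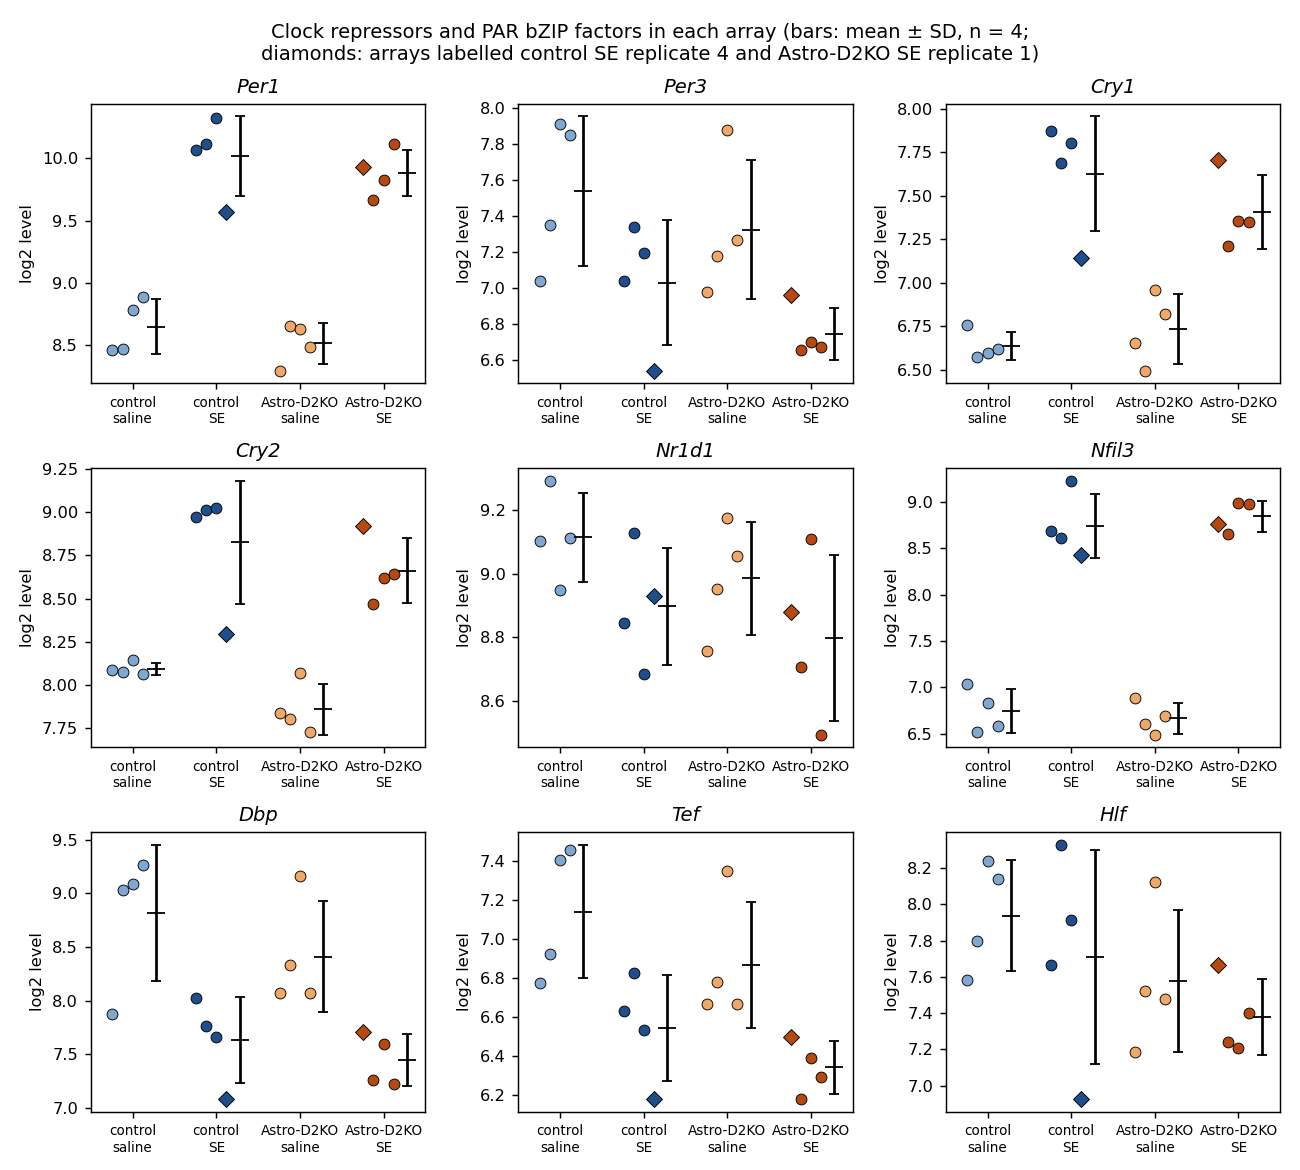
Log2 level (y axis) of the 9 measured members in each of the 16 arrays, by group (x axis); points are arrays, bars are the mean ± SD of 4 arrays, and diamonds are the arrays labelled control SE replicate 4 and Astro-D2KO SE replicate 1. Every SE array lies above every saline array of its genotype for Nfil3, Per1, Cry1 and Cry2, while the groups overlap for Nr1d1 and Hlf.

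Nfil3, the repressor that competes with the PAR bZIP factors for D-boxes, changed most. Its log2 level in the control saline arrays was 7.04, 6.52, 6.84 and 6.59, and in the control SE arrays it was 8.69, 8.61, 9.23 and 8.43. In Astro-D2KO mice it read 6.89, 6.60, 6.49 and 6.69 under saline and 8.76, 8.65, 8.99 and 8.98 after SE. All SE arrays stood well clear of all saline arrays, including both discordant arrays. The rise was 2.00 ± 0.15 on the log2 scale (standard error) in control mice, or 3.99-fold (limma adjusted p = 1.10e-07). It was 2.18 ± 0.15, or 4.52-fold, in Astro-D2KO mice (limma adjusted p = 4.93e-08).

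Per1, a Period repressor and an activity-induced gene in neurons, came next. Its control arrays read 8.46, 8.47, 8.78 and 8.89 under saline and 10.07, 10.11, 10.32 and 9.57 after SE. Its Astro-D2KO arrays read 8.30, 8.65, 8.63 and 8.49 under saline and 9.93, 9.67, 9.82 and 10.11 after SE. The SE and saline arrays did not overlap, and the array labelled control SE replicate 4 was the lowest of the SE arrays. Per1 rose by 1.37 ± 0.15 in each genotype, 2.58-fold in both (limma adjusted p = 4.31e-06 in control and 4.71e-06 in Astro-D2KO mice).

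The Cryptochromes, the partners through which Period proteins repress CLOCK and BMAL1, rose less. Cry1 read 6.76, 6.57, 6.60 and 6.62 in control saline arrays and 7.87, 7.69, 7.80 and 7.14 in control SE arrays. In Astro-D2KO mice it read 6.65, 6.50, 6.96 and 6.82 under saline and 7.71, 7.21, 7.36 and 7.35 after SE. The gap between groups was narrow: in control mice it rested on the array labelled control SE replicate 4, and in Astro-D2KO mice the highest saline array lay just under the lowest SE array. Cry1 rose by 0.99 ± 0.14, or 1.98-fold, in control mice (limma adjusted p = 9.68e-05) and by 0.67 ± 0.14, or 1.59-fold, in Astro-D2KO mice (limma adjusted p = 0.00275). Cry2 was the tightest of the members under saline in control mice, at 8.09, 8.07, 8.14 and 8.06. After SE the control arrays read 8.97, 9.01, 9.03 and 8.29, so that 3 arrays nearly coincided and the array labelled replicate 4 stood far below them. The Astro-D2KO arrays read 7.84, 7.81, 8.07 and 7.73 under saline and 8.92, 8.47, 8.62 and 8.64 after SE, where the array labelled replicate 1 was the highest. Cry2 rose by 0.73 ± 0.14, or 1.66-fold, in control mice (limma adjusted p = 0.000939) and by 0.80 ± 0.14, or 1.74-fold, in Astro-D2KO mice (limma adjusted p = 0.000537). These 4 risers passed in both genotypes under each alternative setting tried, and without both discordant arrays their control rises were 2.10 for Nfil3, 1.51 for Per1, 1.15 for Cry1 and 0.91 for Cry2. Their Astro-D2KO rises were then 2.21, 1.35, 0.57 and 0.72. Non-overlapping higher SE arrays were found for these 4 members in each genotype, beside 8.46% of all genes in control and 9.54% in Astro-D2KO mice.

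Dbp, the PAR bZIP activator most strongly driven by the clock, fell. Its control arrays read 7.88, 9.03, 9.09 and 9.27 under saline and 8.03, 7.76, 7.66 and 7.08 after SE. Control saline replicate 1 was over 1 log2 unit below the other saline arrays and within the range of the SE arrays, so these groups overlapped. In Astro-D2KO mice Dbp read 8.07, 8.34, 9.16 and 8.07 under saline and 7.71, 7.26, 7.60 and 7.23 after SE, without overlap. Dbp fell by 1.18 ± 0.28 on the log2 scale in control mice, 2.27-fold (limma adjusted p = 0.00549), and by 0.96 ± 0.28 in Astro-D2KO mice, 1.95-fold (limma adjusted p = 0.0219). In Astro-D2KO mice the call was lost without Astro-D2KO saline replicate 3, the array at 9.16 (-0.71, limma adjusted p = 0.0847), and without Astro-D2KO SE replicates 2 or 4 (-0.90 and -0.89, limma adjusted p = 0.0587 and 0.0598). Without both discordant arrays Dbp fell by 1.00 in control and by 1.05 in Astro-D2KO mice (limma adjusted p = 0.0239 and 0.0214).

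Tef, the second PAR bZIP factor, fell by less, and the call depended on the probe set. Its control arrays read 6.78, 6.93, 7.41 and 7.46 under saline and 6.63, 6.83, 6.53 and 6.18 after SE, overlapping at the low saline arrays. Its Astro-D2KO arrays read 6.67, 6.78, 7.35 and 6.67 under saline and 6.50, 6.18, 6.39 and 6.30 after SE, without overlap. Tef fell by 0.60 ± 0.17 in control mice, 1.51-fold (limma adjusted p = 0.0193), and by 0.52 ± 0.17 in Astro-D2KO mice, 1.44-fold (limma adjusted p = 0.0414). Its other probe set changed by -0.07 in control and -0.06 in Astro-D2KO mice (limma adjusted p over probe sets = 0.753 and 0.790), so the array does not give 1 answer for Tef. The control fall also did not pass without both discordant arrays (-0.48, limma adjusted p = 0.0722), while in Astro-D2KO mice Tef then fell by 0.58 (limma adjusted p = 0.0355). It was also lost when control saline replicate 3 or 4 or the array labelled control SE replicate 4 was left out, and the Astro-D2KO fall when any of 6 arrays was: control SE replicate 3, Astro-D2KO saline replicates 2 and 3, and Astro-D2KO SE replicates 2, 3 and 4. Without each of those 6 in turn, the Astro-D2KO difference in Tef lay between -0.55 and -0.36 (limma adjusted p from 0.0505 to 0.1545).

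Hlf, the remaining PAR bZIP factor, did not pass. Its control arrays read 7.58, 7.80, 8.24 and 8.14 under saline and 7.67, 8.33, 7.92 and 6.93 after SE. Its Astro-D2KO arrays read 7.18, 7.52, 8.12 and 7.48 under saline and 7.66, 7.24, 7.21 and 7.40 after SE. The control SE arrays alone spanned the whole range seen for the gene. The difference was -0.23 ± 0.24 in control mice (95% interval -0.74 to 0.28, limma adjusted p = 0.571) and -0.20 ± 0.24 in Astro-D2KO mice (limma adjusted p = 0.644). Without both discordant arrays these were 0.03 and -0.29 (limma adjusted p = 0.936 and 0.376), so the control difference changed sign.

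Per3, the Period gene whose window holds the D-boxes, was lower by 0.51 ± 0.21 in control mice (limma adjusted p = 0.0940) and by 0.58 ± 0.21 in Astro-D2KO mice (limma adjusted p = 0.0595), opposite in sign to Per1 and short of the threshold. Control arrays read 7.04, 7.35, 7.91 and 7.85 under saline and 7.04, 7.34, 7.20 and 6.54 after SE, and overlapped. Astro-D2KO arrays read 6.98, 7.18, 7.88 and 7.27 under saline and 6.96, 6.66, 6.70 and 6.67 after SE, where the highest SE array lay just under the lowest saline array. Without both discordant arrays, Per3 in Astro-D2KO mice was lower by 0.65 and passed (limma adjusted p = 0.0400), while in control mice the difference was -0.34 (limma adjusted p = 0.277). Non-overlapping lower SE arrays were found for 0 members in control mice, beside 13.7% of all genes, and for 3 members, Dbp, Tef and Per3, in Astro-D2KO mice, beside 15.1%.

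Nr1d1, the REV-ERB alpha repressor of Arntl, did not pass. Its control means were 9.11 ± 0.14 (SD, n = 4) under saline and 8.90 ± 0.18 after SE, and its Astro-D2KO means were 8.98 ± 0.18 and 8.80 ± 0.26. The groups overlapped in each genotype, with differences of -0.22 (95% interval -0.49 to 0.05, limma adjusted p = 0.263) and -0.19 (95% interval -0.46 to 0.08, limma adjusted p = 0.354), and of -0.23 and -0.21 without both discordant arrays.

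**Figure D2:**
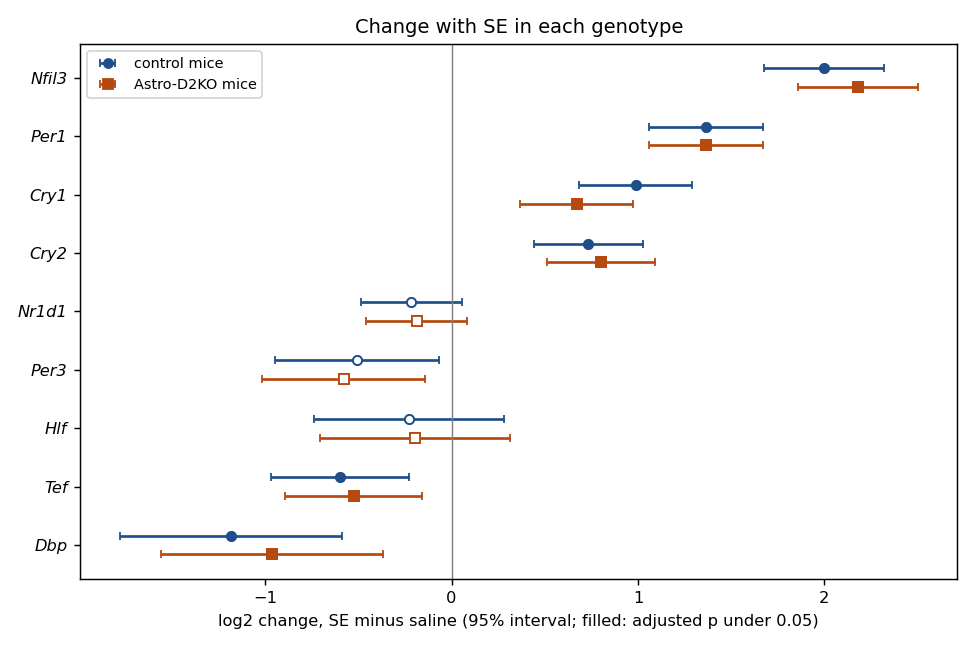
Log2 change with SE (x axis, SE minus saline) of the 9 measured members (y axis) in control (circles) and Astro-D2KO mice (squares); bars are 95% intervals of the limma fit and filled points passed an adjusted p of 0.05. Nfil3 (2.00 and 2.18), Per1, Cry1 and Cry2 lie to the right of 0 and Dbp (-1.18 and -0.96) and Tef to the left, in both genotypes.

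Some markers of cell types changed with SE as well. Of the 5 dentate granule cell markers, 3 fell in control mice, Dsp (-1.75), C1ql2 (-0.96) and Lct (-1.19), and 2 fell in Astro-D2KO mice, Dsp (-1.06) and C1ql2 (-0.98), where 13.7% and 12.6% of all genes fell. The others did not pass: Prox1 stood at 0.15 and 0.20 and Tdo2 at 0.55 and 0.29 in control and Astro-D2KO mice, and Lct at -0.83 in Astro-D2KO mice. When both discordant arrays were left out, 3 and 2 dentate markers fell, and Tdo2 rose in control mice (0.99). Of 4 microglial markers 2 fell in each genotype, P2ry12 in both (-1.02 and -1.14), Cx3cr1 in control (-0.36) and Csf1r in Astro-D2KO mice (-0.44). Of 5 interneuron markers, Gad1 and Sst rose in each genotype, and Gad2, Pvalb and Vip did not pass. Of 5 endothelial markers, Flt1 and Pecam1 rose in each genotype, and Slco1c1 stood at -0.25 and -0.31 without passing. Of 5 general neuronal markers, Rbfox3 fell in both genotypes (-0.29 and -0.25), and Snap25, Syt1, Tubb3 and Stmn2 did not pass. Without both discordant arrays Rbfox3 did not pass in control mice (-0.23, limma adjusted p = 0.0534). Rgs14, of the CA2 and CA3 list, fell in control mice (-0.54). Of 4 oligodendrocyte markers, Mbp and Mag fell in Astro-D2KO mice (-0.31 and -0.44). Of 4 thalamic markers, Tcf7l2 rose in control mice (0.41), and Slc17a6 and Ramp3 rose in Astro-D2KO mice (0.72 and 0.39). Prkcd, of the same list, differed by -0.03 and -0.20 without passing. Without both discordant arrays Tcf7l2 in control and Ramp3 in Astro-D2KO mice did not pass (limma adjusted p = 0.0770 and 0.117). The blood marker S100a9 rose in control mice (0.34), and no CA1, astrocyte, choroid plexus or neocortical marker passed in either genotype by limma. The CA1 markers still averaged 8.15 to 8.26 in control saline and 7.96 to 7.98 in control SE arrays. In Astro-D2KO mice they averaged 7.94 to 8.19 and 7.98 to 8.31. Without both discordant arrays the CA1 marker Wfs1 fell in control mice (-0.44, limma adjusted p = 0.0245) and differed by 0.05 in Astro-D2KO mice. The part of these cell types in the changes of the clock genes with SE was not tested.

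Among the saline arrays, control replicates 3 and 4 and Astro-D2KO replicate 3 had the highest dentate marker means (7.74, 7.49 and 7.61, against 6.62 to 7.16 in the others). The choroid plexus markers, which come from outside the hippocampus proper, ranged from 6.02 to 8.66 over the arrays. Under saline they were highest in control replicate 3 (8.66) and Astro-D2KO replicate 3 (8.15), against 6.26 to 6.97 in the others. Control replicate 4 was among those others, at 6.77.

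Under saline the 3 arrays highest in dentate markers also held the highest levels of Per3, Tef and Hlf. Tef read 7.35 to 7.46 in them and 6.67 to 6.93 in the other 5. Per3 read 7.85 to 7.91 against 6.98 to 7.35, and Hlf 8.12 to 8.24 against 7.18 to 7.80. The 3 arrays are control replicates 3 and 4 and Astro-D2KO replicate 3, and the levels were noticed after the values were seen. Because they form a separate cluster of under 6 arrays, no correlation coefficient over the saline arrays is given.

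Among the 8 SE arrays, the Cryptochromes also fell into separate sets. Cry1 read 7.69 to 7.87 in 4 arrays and 7.14 to 7.36 in the other 4, and Cry2 read 8.92 to 9.03 and 8.29 to 8.64 in the same sets. The higher set was the array labelled Astro-D2KO SE replicate 1 with replicates 1, 2 and 3 of the control SE group, and the lower set held the array labelled control SE replicate 4. Per3 split in the same way (6.96 to 7.34 against 6.54 to 6.70), as did Hlf (7.66 to 8.33 against 6.93 to 7.40). So did Tef (6.50 to 6.83 against 6.18 to 6.39) and, by a narrow gap, Dbp (7.66 to 8.03 against 7.08 to 7.60). Dio2 was likewise higher in every array of the higher set (8.91 to 9.51 against 7.03 to 7.99). No coefficient is given for the Cryptochromes.

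Correlations were computed over 36 pairs of members within each treatment, 72 relations in all, with exact permutation p-values adjusted over the 72, a family chosen after the values were seen. Under saline 8 of 36 pairs passed and after SE 13 of 36 did, all positive, and none of these included Nfil3 or Nr1d1. These counts include the genes with separate sets of arrays, and whether the relations differ between treatments was not tested. Per3 and Hlf after SE had r = 0.972 (Spearman rho = 0.929, exact permutation p = 0.000174 and 0.00223, adjusted p = 0.0125 and 0.0230), and r = 0.932 without the 2 arrays farthest from the median of Per3. Dbp and Tef after SE had r = 0.859 (rho = 0.929, exact permutation p = 0.00734 and 0.00223, adjusted p = 0.0347 and 0.0230), and r = 0.854 without the 2 farthest. Within genotypes these coefficients were 0.991 and 0.896 for Per3 with Hlf and 0.837 and 0.909 for Dbp with Tef, in control and Astro-D2KO arrays respectively. They were 0.967 and 0.820 without both discordant arrays. That left 3 arrays in each SE group, where Per3, Hlf, Dbp and Tef did not overlap between genotypes. These genes follow the split of the SE arrays given above. Each labelled genotype holds arrays of both sets only through the discordant arrays, whose labels were not tested. The coefficients and their p-values therefore pool the sets and cannot show a relation apart from the split. Nfil3, the D-box repressor, had no relation to Dbp past the threshold in the SE arrays (r = 0.202, rho = 0.0952, exact permutation p = 0.628 and 0.840, adjusted p = 0.754 and 0.903; r = -0.379 without the 2 farthest arrays and -0.167 without both discordant arrays).

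Dbp was also set against 13 lists of cell type markers within each treatment, 26 relations of which 0 passed after adjustment. By rank alone, the choroid plexus list under saline had an unadjusted p under 0.05 (Spearman exact permutation p = 0.0279, adjusted p = 0.363, Pearson exact permutation p = 0.122). By Pearson correlation 2 relations had an unadjusted p under 0.05 (exact permutation tests). The first was the dentate list under saline (exact permutation p = 0.0335, adjusted p = 0.436), positive in sign, where the arrays high in Tef also lie at the high end of Dbp. The other was the oligodendrocyte list after SE, with r = 0.770 (rho = 0.738, exact permutation p = 0.0270 and 0.0458, adjusted p = 0.436 and 0.382; r = 0.789 without the 2 farthest arrays). After SE the dentate list had r = 0.435 (rho = 0.429, exact permutation p = 0.285 and 0.299, adjusted p = 0.527 and 0.520; r = 0.0217 without the 2 farthest arrays).

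The effect of the astrocyte Dio2 deletion was compared under saline, after SE and as the difference between the SE responses. No member passed in any of the 3 comparisons, and neither did any of the 22180 genes (0% called in each). That includes Dio2 itself, so the lack of calls also missed the known deletion. Without both discordant arrays Dio2 passed under saline (-1.36, limma adjusted p = 0.00027) and after SE (-2.18, limma adjusted p = 1.35e-06). At an unadjusted p under 0.05 limma gave 885 genes under saline, 1358 after SE and 1031 for the difference between responses, with 0 members in each. Under saline 8 of 9 members were lower in Astro-D2KO mice, and the median difference over the 9 was -0.21, beside 0.00 over all genes. These signs are not independent, since Per3, Tef and Hlf were all highest in control saline replicates 3 and 4 and Astro-D2KO saline replicate 3. Dbp, which is raised by T3 in brain, differed by -0.41 (95% interval -1.001 to 0.189), Hlf by -0.36 (-0.87 to 0.15), Tef by -0.27 (-0.64 to 0.09) and Cry2 by -0.23 (-0.52 to 0.06), and the limma adjusted p was 0.999 for each. Cry1 was the exception in sign, at 0.10 (-0.21 to 0.40). The intervals leave room for a lower Dbp of up to 1 log2 unit as well as for none.

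After SE 8 of 9 members were again lower in Astro-D2KO mice, with a median of -0.19 beside 0.01 over all genes. Here too the signs are not independent, since Per3, Cry1, Cry2, Hlf, Tef and Dbp shared the split of the SE arrays. The differences were -0.33 for Hlf, -0.28 for Per3, -0.22 for Cry1, -0.20 for Tef, -0.19 for Dbp, -0.16 for Cry2, -0.13 for Per1 and -0.10 for Nr1d1, with 0.10 for Nfil3, and limma adjusted p-values ran from 0.860 to 0.940. The arrays of the genotypes overlapped for every member. The SE responses differed by -0.00 for Per1 (95% interval -0.44 to 0.43), -0.32 for Cry1 (-0.74 to 0.11), 0.18 for Nfil3 (-0.27 to 0.64) and 0.22 for Dbp (-0.62 to 1.06), with limma adjusted p from 0.998 to 1.00 over the members. The data thus give no genotype difference past the threshold, while the width of these intervals leaves moderate differences undetected.

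The comparison after SE changed most when both discordant arrays were left out, which leaves 3 arrays against 3. Then 6 members, Per3, Cry1, Cry2, Dbp, Tef and Hlf, were lower in every Astro-D2KO SE array than in every control SE array, beside 7.80% of all genes. Cry2 differed by -0.43 (95% interval -0.62 to -0.23, unadjusted p = 0.000277, limma adjusted p = 0.0980), Cry1 by -0.48 (-0.71 to -0.25, unadjusted p = 0.00053, limma adjusted p = 0.131) and Hlf by -0.69 (-1.15 to -0.22, limma adjusted p = 0.238). Per3 differed by -0.52, Dbp by -0.45, Tef by -0.37, Per1 by -0.30, Nr1d1 by -0.12 and Nfil3 by 0.03. The median over the members was -0.43, beside 0.01 over all genes. No member passed by limma, and 0.0225% of all genes did, Dio2 among them. At an unadjusted p under 0.05 there were 4 of the 9 members and 11.3% of all genes. For the difference between responses 0.00451% of genes passed, and Cry1 stood at -0.58 (limma adjusted p = 0.646, unadjusted p = 0.00122). The excluded arrays were the lowest of the control group and the highest of the Astro-D2KO group for each of these 6 members, so leaving them out widens the difference by its construction. Nfil3, by contrast, was similar with and without them.

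**Figure D3:**
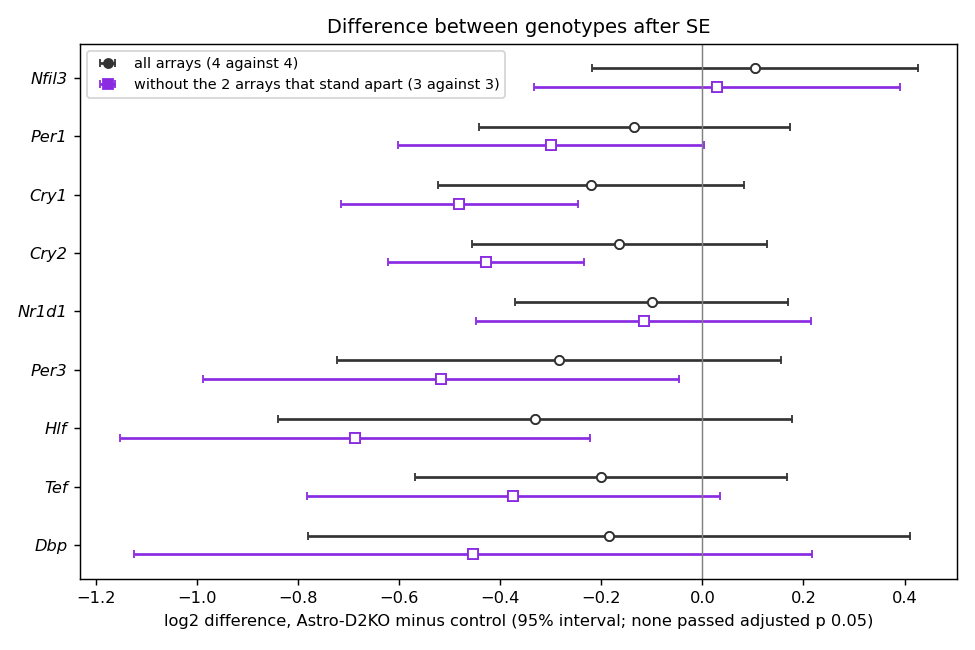
Log2 difference after SE (x axis, Astro-D2KO minus control) of the 9 members (y axis) with all arrays (circles, 4 against 4) and without the 2 discordant arrays (squares, 3 against 3); bars are 95% intervals of the limma fit, and no point passed an adjusted p of 0.05. Cry2 goes from -0.16 to -0.43 and Hlf from -0.33 to -0.69, while Nfil3 stays near 0.

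The rest of the clock network changed in part. Of 26 other clock genes on a list made with earlier results of these data known, 22 were measured. In control mice 5 rose, 4 fell and 13 did not pass, and in Astro-D2KO mice 5 rose, 3 fell and 14 did not pass, with median changes of -0.03 and -0.02. Over all genes 8.42% rose and 13.7% fell in control mice, and 7.49% and 12.6% in Astro-D2KO mice. Without both discordant arrays the counts were 4 and 3 in control and 5 and 3 in Astro-D2KO mice. In neither genotype comparison, nor between the responses, did any of the 22 pass.

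Among the activators, Arntl, which encodes BMAL1, rose by 0.45 ± 0.14 in control mice (limma adjusted p = 0.0311) and differed by 0.40 in Astro-D2KO mice (limma adjusted p = 0.0585). Its partner gene Clock did not pass, at -0.09 and -0.19 (limma adjusted p = 0.481 and 0.0804), although the Astro-D2KO interval, -0.35 to -0.04, left out 0. Npas2, a paralog of Clock, differed by 0.29 in control mice (limma adjusted p = 0.0846) and rose by 0.45 in Astro-D2KO mice (limma adjusted p = 0.00882), and Arntl2 fell by 0.36 and 0.47. Neither the Arntl nor the Npas2 response was shown to differ between genotypes. Without both discordant arrays Arntl did not pass in control mice (0.36, limma adjusted p = 0.0958).

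Among the loop genes and auxiliary repressors, Bhlhe40 (DEC1), which represses E-box activation and is induced by activity, rose by 0.59 ± 0.12 in control and 0.49 ± 0.12 in Astro-D2KO mice. Rorb, a loop gene and not one of the repressors, encodes a receptor that acts on the same elements as REV-ERB. Its level rose by 0.81 ± 0.15 and 0.92 ± 0.15 (limma adjusted p = 0.00071 and 0.000269). Nr1d2, which encodes REV-ERB beta, did not pass, at -0.49 and -0.51 (limma adjusted p = 0.0590 and 0.0530).

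Among the kinases and turnover factors 1 rose and 1 fell in each genotype. Fbxw11, an F-box protein that takes part in Period degradation, rose by 0.27 and 0.33. Fbxl21, an F-box protein that acts on Cryptochromes, fell by 0.36 and 0.39.

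Of the clock outputs, Noct (nocturnin) rose by 0.85 ± 0.12 in each genotype (limma adjusted p = 7.01e-05 and 7.34e-05). The kinase gene Wee1, an E-box target that restrains mitotic entry, fell by 0.49 and 0.80 (limma adjusted p = 0.0433 and 0.00250), and without both discordant arrays it did not pass in control mice (-0.40, limma adjusted p = 0.124). Pdxk, the pyridoxal kinase gene known as a target of PAR bZIP factors in brain, differed by 0.02 and -0.05 (limma adjusted p = 0.904 and 0.755) and did not pass. Alas1, the first enzyme of haem synthesis, fell by 0.35 in control mice (limma adjusted p = 0.0499) and differed by -0.15 in Astro-D2KO mice (limma adjusted p = 0.449).

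**Figure D4:**
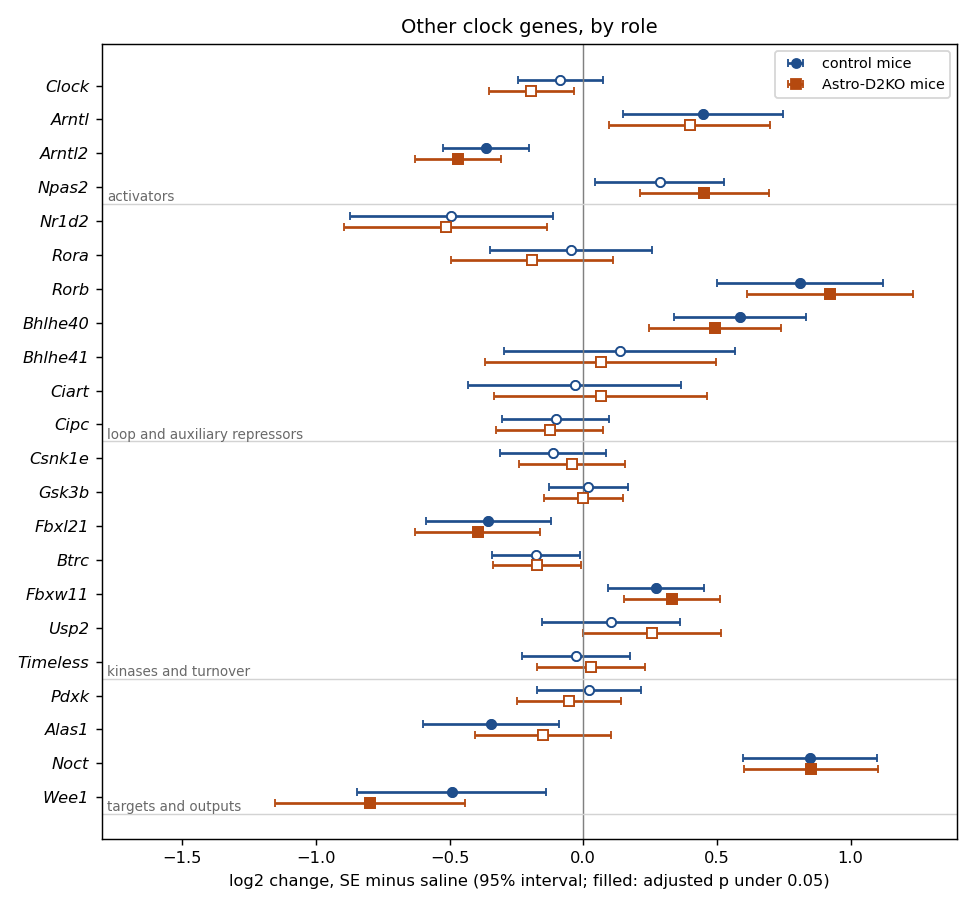
Log2 change with SE (x axis, SE minus saline) of the 22 other clock genes measured (y axis, grouped by role) in control (circles) and Astro-D2KO mice (squares); bars are 95% intervals of the limma fit and filled points passed an adjusted p of 0.05. Rorb, Bhlhe40, Fbxw11 and Noct lie to the right of 0 and Arntl2, Fbxl21 and Wee1 to the left in both genotypes, while both intervals of Pdxk span 0.

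The genes with the pattern nearest to each leading member were found by the root mean square difference between log2 levels over the 16 arrays, after centring each gene on its mean. For Nfil3, whose SD over the arrays was 1.10, these were the neurotrophin gene Bdnf (0.170), the EGF receptor inhibitor gene Errfi1 (0.192) and the kinase gene Sik2 (0.214). For Per1 (SD 0.737) they were the insulin receptor substrate gene Irs2 (0.159), Tbc1d1 (0.170), which encodes a Rab GTPase-activating protein, and Fbxo33 (0.174), which encodes an F-box protein. Dbp (SD 0.714) had a less close set: the orphan receptor gene Gpr12 (0.224), 4933412O06Rik (0.327) and Magee2 (0.329). Likeness here was computed over all arrays, so for Nfil3 and Per1 it is mostly likeness in the SE change.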

How the data were processed

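The authors deposited a table of log2 values made with RMA, per the submitters' processing notes, which give no version. RMA corrects background, normalises arrays by quantiles and summarises probe sets, so levels compare across arrays for a gene but not across genes. The log base was inferred from values of 1.70 to 13.79 and array medians of 5.77 to 5.82. Of 41345 probe sets, 23521 had 1 gene symbol. The highest-mean probe set stood for each of 22180 genes, with no filter on level.

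Limma 3.58.1 in R 4.3.3 fitted 4 group means over 16 arrays (12 residual degrees of freedom) with 5 contrasts. Tests were two-sided, with Benjamini-Hochberg adjustment over all genes and a threshold of 0.05. Errors are standard errors of the fit, or SDs over 4 arrays. Dio2 was tested by exact permutation. The fit was tested on simulated data. The number of arrays limits the precision. Nothing beyond their titles says the arrays of a group are separate mice, so p-values measure the spread between these samples. Same-numbered arrays did not deviate together (median correlation -0.03 over 24 pairs, 4 above 0.1), so numbers were not treated as pairs.

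All members, and by role the other clock genes that passed with SE plus Clock, Arntl, Nr1d2 and Pdxk, were named. Members, lists and arrays left out were chosen with earlier results of these data known. Alternatives covered scaling, probe sets, a filter on dim genes, the variance prior, array weights, the groups in the fit, a replicate block and each array. The sequence of Per2 and proteins were not used here.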

Additional observations from a re-analysis of the deposited data

Results flagged for a closer look

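Of 40 groups of 4 arrays examined, 5 had 1 array far from the rest by Dixon's criterion, which chance alone meets in about 1 in 20 groups. The array labelled control SE replicate 4 was lowest for Cry2, at 8.29 against 8.97 to 9.03 in the others. Control saline replicate 1 was lowest for Dbp, at 7.88 against 9.03 to 9.27. Astro-D2KO saline replicate 3 was highest for Tef, at 7.35 against 6.67 to 6.78. The array labelled Astro-D2KO SE replicate 1 was highest for Per3, at 6.96 against 6.66 to 6.70, and for Dio2, at 8.91 against 7.03 to 7.17.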

How the results depend on the processing

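Over 1121 member values under alternative settings, 1058 kept their direction and side of the threshold, 18 lost a call, 8 gained one, 37 values that had not passed changed sign or moved, and none of the called values reversed. The rises of Nfil3, Per1, Cry1 and Cry2 passed under each alternative run. The number of members that fell in control mice was 1 with a gene's probe sets averaged, 1 without both discordant SE arrays, and 1 to 3 with each array left out in turn; Tef was lost when control saline replicate 3 was dropped (-0.51, limma adjusted p = 0.0678), likewise replicate 4 of that group (-0.49, 0.0663) and control SE replicate 4 (-0.48, 0.0659), and Per3 passed without control saline replicate 1 (-0.67, 0.0271). In Astro-D2KO mice the number was 1 with quantile normalisation repeated (Tef -0.49, 0.0634), 1 with probe sets averaged (Tef -0.29, 0.123), and 0 to 3 with each array left out: 0 without Astro-D2KO saline replicate 3 or Astro-D2KO SE replicates 2 or 4, and 1 without control SE replicate 3, Astro-D2KO saline replicate 2 or Astro-D2KO SE replicate 3. Per3 in Astro-D2KO mice passed with dim genes removed (0.0383), with array weights (0.0455), with the 2 compared groups alone (0.0305), and when control saline replicate 1 (0.0398), control SE replicate 4 (0.0391) or Astro-D2KO saline replicate 1 (0.0407) was dropped. With the replicate number as a block, 4 members rose and 2 fell in each genotype, as without it, and the genome-wide counts were 1773 up and 2803 down in control and 1569 and 2540 in Astro-D2KO mice, beside 1867 and 3040, and 1661 and 2798. Of 16 arrays, 3 lay closest to arrays of their own number, so the numbers are shared only as labels. Per2, the collection time and the sex of the mice are outside what these values can address, and 4 arrays a group leave differences of the size seen between genotypes undetected.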
